A study of Mus musculus with 5 samples.

Results

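Genes that B cells turn on as they leave the immature stage were followed by name on expression arrays labelled as bone marrow cells. The labels name mice with an inactive IKKα kinase and wild-type littermates. The named genes were Ighd, Cd22, Fcer2a, Cr2, S1pr1, Fcrl1, Bank1, Cd83 and Zfp318, chosen by their symbol in the platform's probe annotation and not by their signal. Of these 9 genes, 8 were measured, by 15 of the 45037 probe sets that are not controls. No probe set was paired with Ighd, the constant region of IgD, in the annotation used, and Ighd is not analysed here. Most of the 8 encode surface proteins, but Bank1 is a cytoplasmic scaffold and Zfp318 a nuclear protein.

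The 3 arrays of the KA/KA group were labelled as from knock-in mice with the kinase-dead K44A form of IKKα on both alleles. The 2 arrays of the WT group were labelled as from wild-type littermates. All mice were of the FVB background, 4 weeks old and untreated. Per the labels' protocols, marrow was flushed from tibias and femurs and red cells were lysed. The same protocols then enrich cells carrying B220, a form of CD45 on B-lineage cells, on magnetic columns. Whether RNA of single animals or of pools was hybridised is not given in the sources used here, so tests measure only the spread among arrays, which may be technical. The mutation changes a residue of the protein, so the level of the transcript checks no label and is not analysed here.

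A maturing B cell first displays IgM as an immature cell in the marrow, leaves through the blood, and adds IgD in the periphery. CD22 and the CD21 product of Cr2 set the strength of the B cell receptor signal, the first by inhibition and the second by enhancement. IKKα acts in the alternative NF-κB pathway, through which the BAFF receptor sustains the survival of maturing B cells. Fcer2a and Cr2 are widely used to tell follicular and marginal zone B cells apart in the mouse.

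The arrays did not form 1 population, and 3 of them go against their labelled cell type. The arrays KA/KA 1 and WT 1 were rich in early B cell genes, with Rag1 at 12.80 and 12.79 (every level here is log2 of the signal plus 16, where about 4 is the floor). On KA/KA 2, KA/KA 3 and WT 2 the level of Rag1 was 4.09, 4.09 and 4.10, while Scgb1a1, a secretory protein of lung airways, read 15.16, 15.31 and 14.29 against 4.43 and 4.40 on KA/KA 1 and WT 1. The first pair is called marrow-like and the other 3 arrays lung-like. The border was drawn at a median of 10 for 24 bacterial poly-A control probe sets (13.54 and 12.84 on the marrow-like pair, 5.97 to 8.05 on the lung-like arrays), so the genes described here did not define it. The sets are not groups of the study, and no test was made between them. They also differ in the signal of these controls, and the part of array processing in their differences was not tested. In material of mixed cells, fewer cells of a type and less RNA per cell cannot be told apart.

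The promoters of the 5 genes that differed most clearly between the sets are shown so that their short motifs can be compared. Promoters were matched by symbol for 6 of the 8 measured genes, in RefSeq's GRCm38.p6 annotation, and Cd83 and S1pr1 had no match. Each line gives the 250 bases before the annotated start, 5′ to 3′. Capitals mark a match on either strand to the E-box CAGGTG bound by E2A proteins, the PU.1 core GAGGAA, the octamer ATGCAAAT, the TATA box TATAAA or the NF-κB consensus. Fcer2a has 3 annotated starts, of which the windows with a match are given.
Cd22 (chr7:30879029-30879278, minus strand): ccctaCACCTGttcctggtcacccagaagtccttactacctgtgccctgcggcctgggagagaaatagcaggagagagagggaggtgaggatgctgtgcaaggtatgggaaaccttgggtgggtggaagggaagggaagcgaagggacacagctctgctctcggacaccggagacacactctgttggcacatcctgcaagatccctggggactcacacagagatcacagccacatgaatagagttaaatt
Cr2 (chr1:195176720-195176969, minus strand): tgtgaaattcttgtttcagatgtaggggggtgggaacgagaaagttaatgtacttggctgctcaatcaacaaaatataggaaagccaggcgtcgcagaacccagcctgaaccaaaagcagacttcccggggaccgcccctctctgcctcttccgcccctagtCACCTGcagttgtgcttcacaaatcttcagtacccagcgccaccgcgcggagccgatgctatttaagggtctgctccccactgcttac
Bank1 (chr3:136326067-136326316, minus strand): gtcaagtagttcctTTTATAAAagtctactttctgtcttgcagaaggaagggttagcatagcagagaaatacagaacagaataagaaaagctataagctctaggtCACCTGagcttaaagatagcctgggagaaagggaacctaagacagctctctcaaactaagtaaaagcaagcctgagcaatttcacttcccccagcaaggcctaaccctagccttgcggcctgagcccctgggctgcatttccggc
Fcrl1 (chr3:87376137-87376386, plus strand): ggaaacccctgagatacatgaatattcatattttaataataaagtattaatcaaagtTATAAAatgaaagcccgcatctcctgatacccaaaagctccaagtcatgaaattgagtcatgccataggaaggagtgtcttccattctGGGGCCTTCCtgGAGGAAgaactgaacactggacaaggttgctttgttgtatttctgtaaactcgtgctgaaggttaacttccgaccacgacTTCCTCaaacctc
Fcer2a (chr8:3690862-3691111, minus strand): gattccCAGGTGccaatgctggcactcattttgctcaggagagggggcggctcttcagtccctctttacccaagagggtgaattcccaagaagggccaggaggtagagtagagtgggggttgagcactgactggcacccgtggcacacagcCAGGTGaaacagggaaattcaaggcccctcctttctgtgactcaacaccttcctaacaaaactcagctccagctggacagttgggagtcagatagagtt
Fcer2a (chr8:3694175-3694424, minus strand): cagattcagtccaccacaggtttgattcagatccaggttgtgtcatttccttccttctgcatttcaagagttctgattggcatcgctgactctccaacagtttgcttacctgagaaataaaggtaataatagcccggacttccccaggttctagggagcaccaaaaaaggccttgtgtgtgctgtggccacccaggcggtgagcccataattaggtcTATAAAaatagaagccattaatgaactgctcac

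The E-box CAGGTG was found once each before Cd22, Cr2 and Bank1 and 2 times before 1 start of Fcer2a, against 17.2% of all 32851 promoter windows of that length. The other starts of Fcer2a and the windows of Fcrl1 and Zfp318 held none. The window of Fcrl1 had 2 PU.1 cores (23.3% of all windows), 1 TATA box far from the start (12.4%) and 1 match to the NF-κB consensus (7.25%). None of the other windows searched held the last of these, and Cd83 and S1pr1 had no window to search. TATA boxes also lay before 1 start of Fcer2a and, as 2 overlapping matches far from the start, before Bank1. The octamer (1.6% of windows) was in none of the windows searched. The window of Zfp318 held no match and was 79.6% G and C, against 40.8% for Fcrl1. Each match describes letters in these windows and shows no binding.

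In the marrow-like pair, 2 of the 8 genes were higher on the array labelled KA/KA 1 than on the array labelled WT 1. Of the 22519 probe sets that passed the filter on dim signals, 54.2% were higher. None of the 8 genes differed by 1 log2 unit, in either direction, where 2.85% of those probe sets were higher by that much and 1.56% lower. At shares this small, that count does not set the 8 genes apart. The median difference (KA/KA 1 minus WT 1) was -0.13, against 0.05 over all those probe sets. With 1 array of each genotype there is no replicate check and no test. Each gene is given by its probe set of highest mean unless another is named.

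Cd22, the inhibitory receptor, read 12.26 on KA/KA 1 and 12.16 on WT 1. Fcer2a, which encodes the low-affinity IgE receptor CD23, read 11.03 and 11.05 in that order. Cd83, a membrane protein of activated B cells and dendritic cells that stabilises MHC class II, read 11.16 on KA/KA 1 and 10.89 on WT 1. These pairs lay within 0.27 log2 units of each other. Bank1, which couples the B cell receptor to calcium release, read 12.03 on KA/KA 1 and 12.25 on WT 1. Zfp318, which allows the long transcript that gives IgD, read 10.20 on KA/KA 1 and 10.32 on WT 1. S1pr1, the sphingosine 1-phosphate receptor that lets B cells leave the marrow and is also abundant in endothelium, read 9.44 on KA/KA 1 and 9.57 on WT 1. The widest gaps were those of Cr2 (9.20 on KA/KA 1, 9.89 on WT 1) and of Fcrl1, an Fc receptor-like protein of B cells (10.03 on KA/KA 1, 10.73 on WT 1), both lower on KA/KA 1 by 0.69 log2 units.

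A single probe set of the 15 passed 1 log2 unit in this pair. It was the second probe set of Fcer2a, at 7.86 on KA/KA 1 and 8.90 on WT 1, and it was too dim overall to pass the filter. Its difference of -1.04 stood beside -0.02 for the brighter Fcer2a probe set. The other mature B cell genes gave a median of -0.22 in this pair, with 5 of 19 higher on KA/KA 1, and the genes of receptor signalling and co-receptors 0.19, with 10 of 17 higher. Plasmacytoid dendritic cell markers gave -0.60, with 3 of 9 higher.

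**Figure D1:**
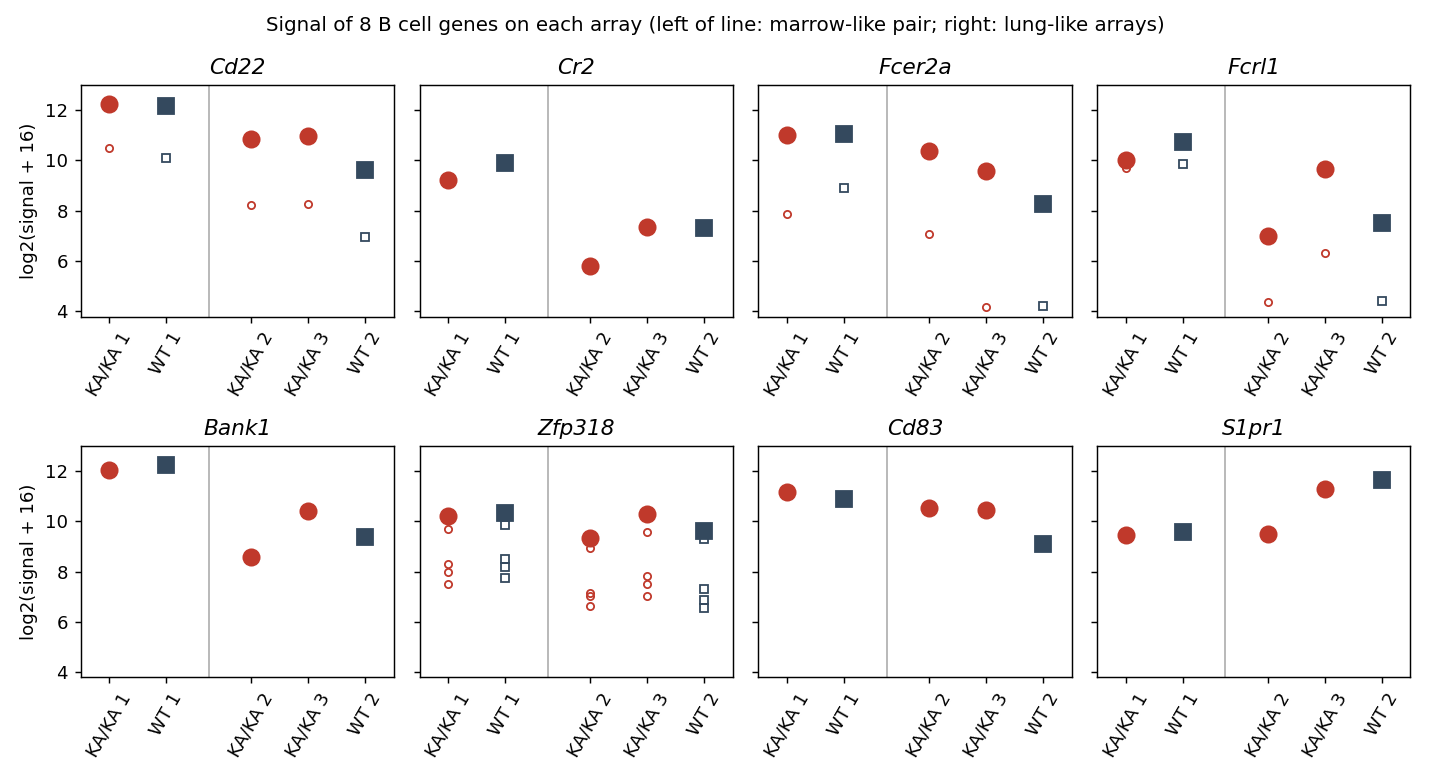
Signal of each of the 8 measured genes on the 5 arrays, as log2(signal + 16), with KA/KA arrays as red circles and WT arrays as dark squares. Filled symbols are the probe set of highest mean and small open symbols the gene's other probe sets, and each symbol is 1 array. Cd22, Cr2, Fcer2a, Fcrl1 and Bank1 are higher on both arrays left of the line than on any array right of it, and S1pr1 is not.

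Between the sets, 7 of the 8 genes had a higher mean on the marrow-like pair, beside 50.5% of the probe sets passing the filter. S1pr1 had a lower one. Unlike Rag1, none of the 8 was at the floor on all of the lung-like arrays. The marrow-like arrays were higher, without overlap and by at least 1 log2 unit, for 5 of the 8 genes, beside 15.5% of the probe sets passing the filter. None of the 8 was lower by the same rule, beside 20.1%. The median difference of the 8 (marrow-like minus lung-like) was 1.68, and that of all probe sets passing the filter was 0.01. The list of early B cell markers had a median of 5.29, with 8 of 9 called higher on the marrow-like pair. Markers of plasmacytoid dendritic cells, which also carry B220, were higher there for 9 of 9, of which 7 were called (median 3.54). Their summed signal was 29840 and 39379 on KA/KA 1 and WT 1, and 8934, 8048 and 9235 on KA/KA 2, KA/KA 3 and WT 2. These sums also hold genes not limited to these cells. Among them, Tcf4 read 12.34 and 11.88 on the marrow-like pair and 11.79, 12.03 and 12.05 on the lung-like arrays. The part of plasmacytoid dendritic cells in the differences of the 8 genes was not tested.

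Cr2, the complement receptor, read 9.20 and 9.89 on the marrow-like arrays (KA/KA 1 and WT 1) and 5.81, 7.35 and 7.33 on the lung-like arrays (KA/KA 2, KA/KA 3 and WT 2). Its difference of 2.72 log2 units, or 6.58-fold, was the widest of the 8. Bank1 followed at 2.69, with 12.03 and 12.25 on the marrow-like pair and 8.56, 10.40 and 9.37 on the lung-like arrays. No lung-like array reached the marrow-like levels of either gene.

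Fcrl1 read 10.03 and 10.73 on the marrow-like pair against 6.99, 9.66 and 7.52 on the lung-like arrays, a difference of 2.32. KA/KA 3 was far above the other lung-like arrays and close to KA/KA 1. Its second probe set separated the sets more widely, at 9.71 and 9.86 on the marrow-like pair and 4.36, 6.32 and 4.43 on the lung-like arrays. These last values include 2 close to the floor, so the difference of 4.74 depends on the constant of 16.

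Cd22 differed by 1.75 log2 units (12.26 and 12.16 on the marrow-like pair, 10.84, 10.95 and 9.61 on the lung-like arrays), and its second probe set by 2.46. Fcer2a differed by 1.62 (11.03 and 11.05 on the marrow-like pair, 10.37, 9.60 and 8.28 on the lung-like arrays). Its second probe set also separated the sets, but its values on KA/KA 3 and WT 2 lay near the floor, so the size (3.22) depends on the constant of 16. For both genes WT 2 was the lowest array of the 5 on the brighter probe set. Cd83 lay just outside the rule at a difference of 0.999, with 11.16 and 10.89 on the marrow-like pair and 10.52, 10.46 and 9.11 on the lung-like arrays, also without overlap. The medians of the arrays themselves differed by -0.35 (marrow-like minus lung-like), and centring them put Cd83 at 1.35, past the rule, and S1pr1 at -0.95. Quantile normalisation instead gave 0.98 for Cd83, still outside the rule, and -1.27 for S1pr1.

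Zfp318 and S1pr1 did not separate the sets. Zfp318 read 10.20 and 10.32 on the marrow-like pair and 9.32, 10.28 and 9.63 on the lung-like arrays, where KA/KA 3 lay between the marrow-like values. Its 5 probe sets differed by 0.35 to 1.53, all in the same direction, and 3 of them did not overlap between sets. S1pr1 was the single gene with a negative difference (-1.30). It read 9.44 and 9.57 on the marrow-like pair against 9.49 on KA/KA 2, and was high only on KA/KA 3 (11.28) and WT 2 (11.63).

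**Figure D2:**
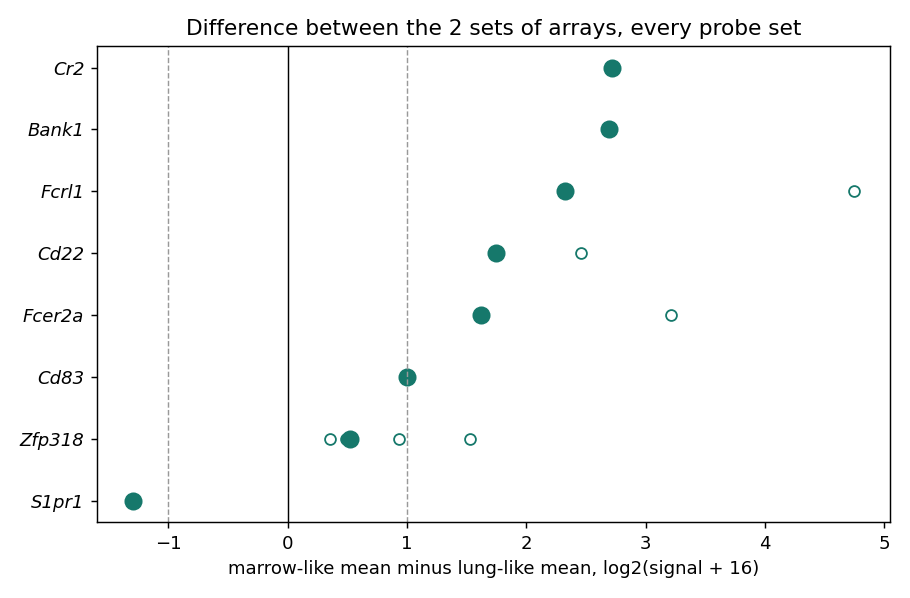
Difference between the mean of the marrow-like pair and the mean of the 3 lung-like arrays for each probe set, on the log2(signal + 16) scale, with the probe set of highest mean filled and the others open. Dashed lines mark 1 log2 unit. Cr2 (2.72) and Bank1 (2.69) lie farthest to the right among filled points, and S1pr1 (-1.30) alone lies left of 0.

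Genes of other B cell lists, taken from general knowledge, ran mostly in the same direction. The receptor signalling list is not limited to genes turned on as B cells leave the immature stage. The part of early B cells in its differences was not tested. Of 17 measured genes of B cell receptor signalling and co-receptors, 14 were called higher on the marrow-like pair and 2 lower (median difference 2.58). The widest were Fcrla (5.71) and the inhibitory receptor Cd72 (4.29). Cd5, which T cells also carry (-1.84), and the widely expressed tetraspanin Cd81 (-1.04) ran the other way. Of 19 other mature B cell genes, 13 were called higher and none lower (median 1.90), led by the transcription factor Spib (4.79) and the BAFF receptor gene Tnfrsf13c (4.31). The co-stimulatory ligands Icosl (-0.45) and Cd80 (0.33) had the lowest differences of this list.

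Within the lung-like arrays, the 8 genes did not move as one between genotypes. Cd22, Fcer2a and Cd83 were higher on both KA/KA arrays than on WT 2, by 1.23 to 2.09 log2 units. Fcrl1 and Bank1 were higher on KA/KA 3 alone, and Cr2 and S1pr1 were lower on KA/KA 2 by more than 1 log2 unit. Thus 3 of 8 genes were higher by at least 1 log2 unit on both KA/KA arrays, beside 3.1% of the probe sets passing the filter, and none was lower on both, beside 1.65%. The median of the 8 differences was -0.42 for KA/KA 2 and 1.17 for KA/KA 3 (0.49 for their mean), and that of all probe sets passing the filter -0.04 and -0.0012. Both differences share WT 2, the single WT array of this set, so its own deviation enters each of them and no test was made.

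Cd22 read 10.84 on KA/KA 2 and 10.95 on KA/KA 3, against 9.61 on WT 2, which is 2.35-fold and 2.54-fold higher. Its second probe set gave 1.28 and 1.31 log2 units. Fcer2a read 10.37 on KA/KA 2 and 9.60 on KA/KA 3, against 8.28 on WT 2. Those are differences of 2.09 and 1.32, but its dim probe set read 7.07 on KA/KA 2 and 4.19 on KA/KA 3, against 4.23 on WT 2, and so showed only the first of them. Cd83 read 10.52 on KA/KA 2 and 10.46 on KA/KA 3, against 9.11 on WT 2, with differences of 1.41 and 1.36.

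Fcrl1 read 6.99 on KA/KA 2 and 9.66 on KA/KA 3, against 7.52 on WT 2. KA/KA 3 was thus higher than WT 2 by 2.14 log2 units (4.42-fold), and KA/KA 2 differed from it by -0.52. Both probe sets of Fcrl1 showed this order of KA/KA 3 against the other arrays. Bank1 read 8.56 on KA/KA 2 and 10.40 on KA/KA 3, against 9.37 on WT 2 (differences of -0.81 and 1.03). Cr2 read 5.81 on KA/KA 2 and 7.35 on KA/KA 3, against 7.33 on WT 2, so KA/KA 2 alone stood apart (-1.51). Zfp318 differed by -0.31 on KA/KA 2 and 0.65 on KA/KA 3. S1pr1 read 9.49 on KA/KA 2 and 11.28 on KA/KA 3, against 11.63 on WT 2, with a difference of -2.15 on KA/KA 2 and -0.35 on KA/KA 3.

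**Figure D3:**
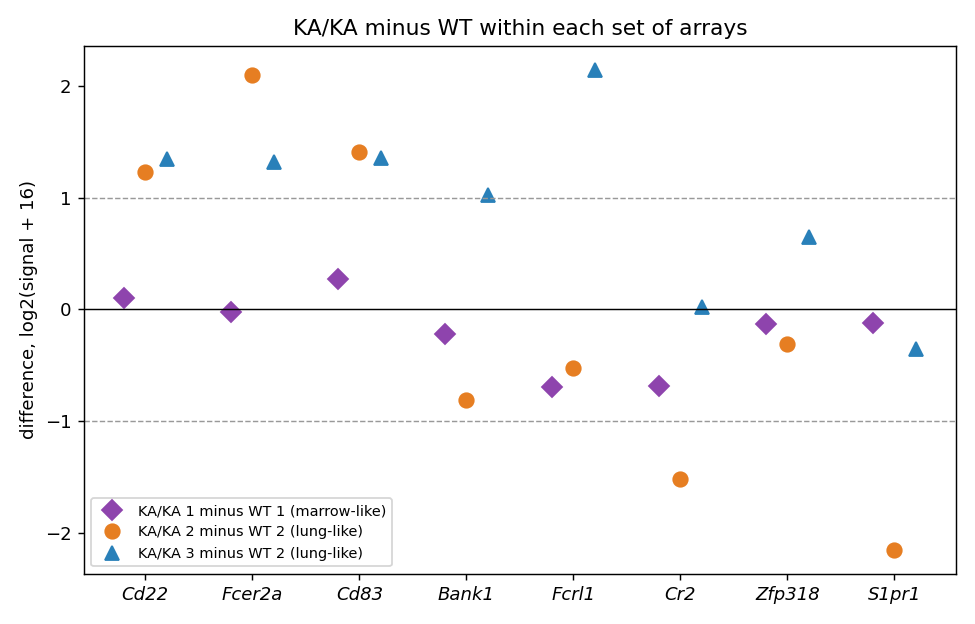
Difference KA/KA minus WT for each of the 8 genes on the log2(signal + 16) scale, within the marrow-like pair (purple diamonds) and for each lung-like KA/KA array against WT 2 (orange circles for KA/KA 2, blue triangles for KA/KA 3). Each symbol compares 1 array with 1, and dashed lines mark 1 log2 unit. All diamonds lie between -0.69 and 0.27, whereas circles and triangles spread from -2.15 to 2.14.

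Markers of other cells also differed between the lung-like arrays. All 9 measured monocyte and macrophage markers were higher on KA/KA 2 and on KA/KA 3 than on WT 2 (medians 2.03 and 1.15), and their summed signal was 88448 and 68788 on those arrays against 30280 on WT 2. T cell markers were higher for 8 of 9 on KA/KA 2 and 9 of 9 on KA/KA 3 (medians 0.87 and 1.95), with sums of 4430 and 11062 against 2286. The list of conventional dendritic cells, which also carry Cd83, was higher for 5 of 9 and 7 of 9 (medians 0.09 and 0.47), with sums of 9866 and 9688 against 3556. Of these markers Cd5 is also in the receptor signalling list and Ccr7 in that of other mature B cell genes. No marker of these 3 lists was at the floor on all of the lung-like arrays. The part of these cells in the differences of Cd22, Fcer2a and Cd83 was not tested.

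Endothelial markers were lower on KA/KA 2 than on WT 2 for 10 of 10 (median -2.30), and on KA/KA 3 for 7 of 10 (median -0.28). Their summed signal was 17784 on KA/KA 2 and 51405 on KA/KA 3 against 57255 on WT 2, and 4110 and 2906 on KA/KA 1 and WT 1. S1pr1, with -2.15 on KA/KA 2 and -0.35 on KA/KA 3, stood beside these medians, and the part of endothelium in it was not tested. The other mature B cell genes had a median of -0.25 on KA/KA 2 and of 0.98 on KA/KA 3, where 19 of 19 were higher than on WT 2. The genes of receptor signalling and co-receptors were higher for 13 of 17 on KA/KA 2 (median 0.49) and 16 of 17 on KA/KA 3 (median 1.07). Of all probe sets passing the filter, 47.3% were higher on KA/KA 2 and 49.9% on KA/KA 3. On KA/KA 2 the receptor signalling list ran from -1.36 for Blk to 4.53 for Fcgr2b, and the part of other cells in it was not tested. Among the other mature B cell genes Ms4a1, which encodes CD20, differed by -0.83 on KA/KA 2 and 1.48 on KA/KA 3. Bank1, Fcrl1, Zfp318 and Cr2 (only 0.03 on KA/KA 3) had the same signs as Ms4a1 on each KA/KA array, which is a description of 3 arrays.

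**Figure D4:**
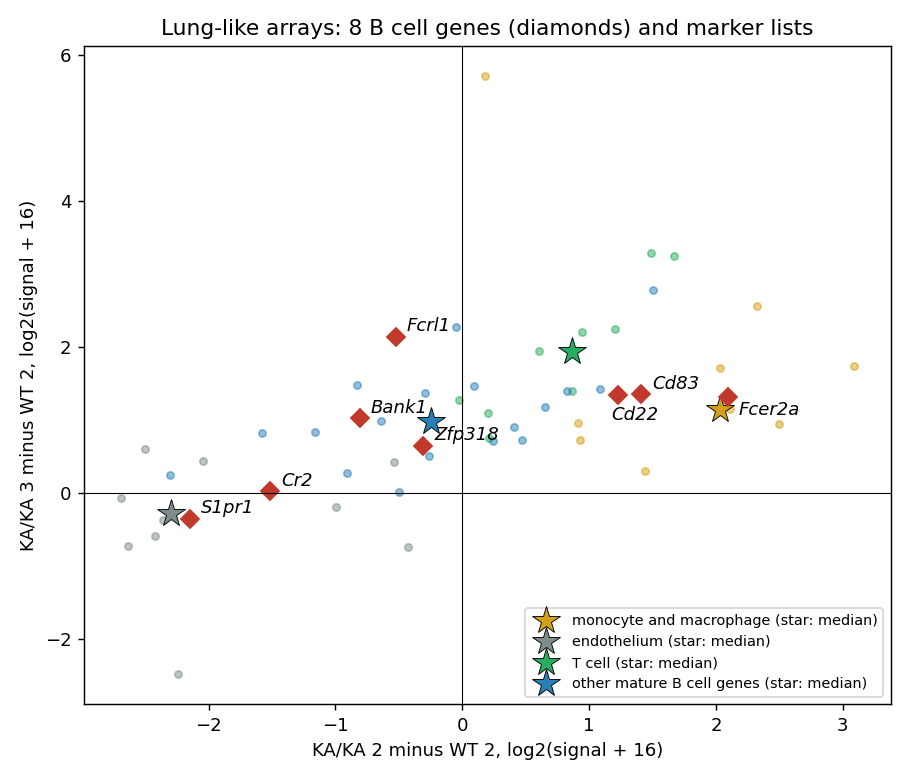
Difference from WT 2 on the log2(signal + 16) scale for KA/KA 2 (horizontal axis) and KA/KA 3 (vertical axis), both of which share WT 2. Red diamonds are the 8 genes, small points the genes of 4 marker lists, and stars the list medians. Cd22, Cd83 and Fcer2a lie at the upper right, as do the macrophage (2.03 and 1.15) and T cell (0.87 and 1.95) medians, with S1pr1 at the left near the endothelial median (-2.30 and -0.28), and Fcrl1 and Bank1 at the upper left.

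The genes whose profiles over the 5 arrays came closest to each member are given as a description, by the root mean square difference of centred log2 values among 11384 genes, and 2 sets of arrays shape all of them. For Cd22 they were Panx1 (0.06) and Arhgap30 (0.07), for Cd83 Laptm5 (0.11) and Cdk5r1 (0.13), and for Fcer2a Apobec1 (0.19) and Nckap1l (0.20). S1pr1 was closest to Icam2 (0.07), an adhesion molecule of endothelium and leukocytes, and to Lepr (0.11). Icam2 read 10.59 and 10.76 on KA/KA 1 and WT 1, and 10.76, 12.62 and 12.82 on KA/KA 2, KA/KA 3 and WT 2. Bank1 was closest to 4930426D05Rik (0.15) and Pilrb1 (0.18), Cr2 to Il12a (0.14) and Rgs18 (0.15), and Zfp318 to Fam204a (0.03) and Nap1l1 (0.06). Those of Fcrl1 were farther away, Ripor2 at 0.37 and S1pr4 at 0.38.

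Over all 5 arrays, no difference between KA/KA and WT passed limma's test for any of these genes. Of 22519 probe sets, 0 were called higher (0.0%) and 0 lower (0.0%) at a Benjamini-Hochberg adjusted p of 0.05, and 47 had an unadjusted p under 0.05. The members had 13 probe sets in that fit, covering all 8 genes, and each had an adjusted p of 0.9999, with no unadjusted p under 0.05. The difference between the array sets enters the error of this fit, so a gene that missed the threshold is not shown to be alike in KA/KA and WT. On simulated data the same fit recovered 0% of added changes of 4 log2 units. The median difference of the 8 genes (KA/KA minus WT) was -0.14, and that of all probe sets tested was 0.02. The widest difference was that of Cr2, which averaged 7.46 ± 1.70 in KA/KA and 8.61 ± 1.81 in WT (SD, n = 3 and 2), a difference of -1.15 ± 1.27 (SE). Cd83 averaged 10.71 ± 0.39 in KA/KA and 9.999 ± 1.26 in WT, a difference of 0.71 ± 0.62. Fcer2a differed by 0.67 ± 0.94, Cd22 by 0.47 ± 0.90, S1pr1 by -0.53 ± 0.89, Bank1 by -0.48 ± 1.32, Fcrl1 by -0.23 ± 1.36 and Zfp318 by -0.04 ± 0.46. For none of the 8 genes did the 3 KA/KA arrays lie wholly above or below the WT arrays, beside 3.87% of probe sets wholly above and 3.18% wholly below.

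The signs of these differences rested on single arrays. Without WT 2, Cd22 stood at -0.81, Cd83 at -0.18, Fcer2a at -0.72 and S1pr1 at 0.50, and without WT 1, Bank1 stood at 0.96, Cr2 at 0.13, Fcrl1 at 1.38 and Zfp318 at 0.30. With the array set as a block, limma called 0 probe sets, with 673 at an unadjusted p under 0.05. Cd83 was then at 0.91 ± 0.32, Fcer2a at 0.97 ± 0.46 and Cd22 at 0.78 ± 0.33, each with an adjusted p of 0.9996. The block gave S1pr1 -0.77 ± 0.56, Cr2 -0.72 ± 0.49, Fcrl1 0.17 ± 0.79, Zfp318 0.04 ± 0.35 and Bank1 -0.03 ± 0.53, with the same adjusted p. The genotype difference was also compared between the sets by an interaction term in limma, which called 0 of 22519 probe sets (0.0%), with 1325 at an unadjusted p under 0.05. For Fcer2a the marrow-like difference minus the lung-like one was -1.73 ± 0.68, for Cd22 -1.19 ± 0.46 and for Cd83 -1.11 ± 0.48, with an adjusted p of 0.824 for each. That fit leaves 1 residual degree of freedom, from KA/KA 2 and KA/KA 3, and the WT arrays are assumed to vary as these do. On simulated data it recovered 4.48% of added changes of 2 log2 units, so a miss does not show that the sets were alike.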

How the data were processed

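Each array was labelled from 150 ng of total RNA, per the labels' protocols, and the table the authors deposited holds 45101 intensities an array. Per the submitters' processing notes the software was MAS5 (no version given). The series text speaks of a log2 transformation, but the deposited intensities were linear, with a highest signal of 21977 to 40821 and a trimmed mean of 500.0 on each array (2% left out at each end). The number of arrays limits the precision. Array medians on the log2 scale differed by 0.37, and no further scaling was done.

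From these values log2(signal + 16) was computed. The 64 control probe sets were left out. Of all 45101 probe sets, 34958 had 1 gene symbol in the platform annotation and 932 had several and were left unnamed. Probe sets at or above the median mean signal (22519) entered limma 3.58.1 in R 4.3.3 (lmFit, eBayes with trend, two-sided, Benjamini-Hochberg adjustment over all of them, threshold 0.05). The scripts were tested on simulated data, with noise of a common spread inside the array sets and changes added to some probe sets. The fit without a block recovered 0% of added changes of 4 log2 units. The array-set block recovered 6.27% of those of 1 log2 unit and 79.1% of those of 2. For changes of 2 log2 units the interaction term recovered 4.48%. An exact permutation test of 3 against 2 arrays cannot reach the threshold and was not run.

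The members and all lists were chosen with earlier results of these data known. Named genes are all members, the 2 genes of closest profile for each, and the 2 widest and 2 lowest differences between the sets in the lists of B cell receptor signalling and of other mature B cell genes. Rag1, Scgb1a1, Ms4a1, Tcf4, Blk and Fcgr2b were named after their values were seen. The alternatives were quantile normalisation, median centring, pseudocounts of 1 and 64, no filter, an upper-quarter filter, eBayes without trend, other choices of probe set, the array set and the replicate number as blocks, and leaving out each array.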

Additional observations from a re-analysis of the deposited data

Results flagged for a closer look

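Fcer2a is listed because its difference between genotypes ran in opposite directions in the 2 sets of arrays. It was -0.022 for KA/KA 1 minus WT 1, and 2.09 and 1.32 for KA/KA 2 and KA/KA 3 minus WT 2. The interaction term of limma gave an adjusted p of 0.824, so the difference between the sets did not pass the test. The first value is close to 0, and the dim probe set of Fcer2a gave -1.04, 2.84 and -0.03 for the same differences. Groups of 3 and 2 arrays are too small for the search for single outlying arrays.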

How the results depend on the processing

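The difference between the array sets enters the error of the fit without a block, so its count of 0 called probe sets says nothing about stability. With the replicate number as a block (replicate block), limma called 3 probe sets, all higher in KA/KA, which were 2 of Xist and 1 of Ms4a4b, named here after their values were seen. Xist, a transcript of female cells, differed by 7.06 and 6.13 log2 units on its 2 probe sets. The sex of the mice was not part of any fit, and its part in the KA/KA minus WT differences was not tested. The labels do not say that a number pairs the mice. Deviations from the group means correlated at 0.87 for KA/KA 1 with WT 1 and 0.648 for KA/KA 2 with WT 2, but also at 0.773 for KA/KA 3 with WT 2. The replicate block leaves 1 residual degree of freedom. It moved the median of the 8 genes to -0.36, against -0.14 without it, and called no member. Only KA/KA 3 has the number 3, so the block fits that array exactly, and leaving KA/KA 3 out also gave a median of -0.36. With the array set as a block that median was 0.10, of opposite sign. Leaving out probe sets shared between transcripts, which drops Cr2, gave -0.04 for it and 0.81 for KA/KA 2 and KA/KA 3 minus WT 2, against 0.49. The median between the sets was 2.03 with median centring and 2.26 when all probe sets of a gene were averaged, against 1.68. Under the array-set block Fcrl1 (0.17) and Zfp318 (0.043) changed sign. Leaving out 1 array at a time, the median of the 8 genes ran from -0.76 to 1.17 for KA/KA against WT, from -0.42 to 1.17 for KA/KA 2 and KA/KA 3 minus WT 2, and from 1.19 (without WT 2) to 1.86 for marrow-like minus lung-like. For single genes over the same omissions, a setting added after seeing the data, differences ran from -1.92 to 0.96 for Bank1, -0.81 to 1.74 for Cd22, -0.18 to 1.61 for Cd83, -2.44 to 0.13 for Cr2, -0.72 to 2.05 for Fcer2a, -1.83 to 1.38 for Fcrl1, -1.57 to 0.50 for S1pr1 and -0.39 to 0.30 for Zfp318. Without KA/KA 2, Bank1 stood at 0.41, Fcrl1 at 0.73 and Zfp318 at 0.26. The cause was not tested. Scaling and the pseudocount turned the direction of no gene's difference over all KA/KA and WT arrays and of none of the 4 medians. They were not run for single genes within a set, where values such as -0.02 for Fcer2a lie near 0. Values near 4 on the log2 scale lie at the floor, where signal over background limits what can be read.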
